A study of Arabidopsis thaliana with 24 samples.

Results

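Arabidopsis plants mutated in both the chromatin remodelling ATPase BRM and the histone deacetylase HD2C were compared with 3 other genotypes. Of the 16552 genes measured on the arrays, 51 (0.308%) met a rule on heat response and level. The rule asked for a double-mutant heat response at least 0.8 above that of each of the other 3 genotypes on the log2 scale. The heat response of a genotype is the mean log2 level of its 3 heated arrays minus the mean of its 3 control arrays. The excess of the double mutant's response over the highest of the other 3 responses is called the margin. A gene was also required to have a mean of at least 5 in the heated double mutant and a heated hd2c-3 mean less than 0.6 above the heated WT mean. Genes of the cold-regulated and abscisic acid type, glycosyltransferases, cytochromes P450, expansins and xyloglucan endotransglucosylases were to be left out by name, although no gene with such a name met the other conditions. Genes of these types that carry only a locus identifier were not recognised by this step. Of 122 genes with a margin of at least 0.8, 83 had the required level, and 51 of these also met the hd2c-3 condition. The genes were thus chosen by measured responses and levels, so the values of the 51 genes are given as a description. Where the calls of the fit over all genes are counted among them, the counts are no independent test.

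The genotypes were the double mutant brm-1 hd2c-3, the single mutants brm-1 and hd2c-3, and the wild type Col-0 (WT), the ecotype background given for every group. Each was sampled after 1 h at 38 °C and in control conditions, with 3 arrays per genotype and condition and 24 arrays in all. The plants were 3 weeks old, were raised on soil at 70% humidity under long days (16 h of light, 8 h of darkness), and their total RNA was hybridised to Affymetrix whole-transcript arrays. According to the study design, the 3 biological replicates of each group were picked for having similar levels of marker genes that it does not name, which can narrow the spread between replicates.

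BRM, short for BRAHMA, is the ATPase of SWI/SNF complexes, which use ATP to slide or evict nucleosomes and so change how open a gene is to transcription. HD2C belongs to a plant-specific family of histone deacetylases, enzymes that remove acetyl groups from histones and are mostly linked to lower transcription. Heat makes plant cells induce genes of chaperones and other protective proteins within minutes, while many genes of growth and of other stress programmes are turned down. The question the 51 genes address is what heat does to transcripts when both factors are mutated that it does not do to the same extent when either one is mutated.

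The files and the reference gene table give a gene symbol for 3 of the 51 genes. ATPMEPCRB (AT4G02330), also listed as pectin methylesterase 41, belongs to the enzymes that remove methyl esters from cell wall pectin. TET8 (AT2G23810) is a tetraspanin, a membrane protein with several membrane-spanning segments that is known in Arabidopsis as a marker of extracellular vesicles. SAT32 (AT1G27760) is listed as SALT-TOLERANCE 32 and is named for salt tolerance. The other 48 genes carry only a locus identifier there, so no function is given for them here. Each of the 51 genes was read by 1 probe set.

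No probe set was named for BRM or HD2C, so neither mutation could be seen in its own transcript here. The deposited values are log2 intensities with array medians between 3.42 and 3.65, and precision is limited by the 3 arrays per group. The median gene had an SD of 0.212 among the heated double-mutant arrays, against 0.134 to 0.194 in the other 7 groups. No organ is named in the labels. RCA, which encodes the activase of the photosynthetic enzyme Rubisco and marks leaves, was at 11.03 in the heated double mutant and between 10.72 and 11.10 in the other groups. Markers of flowers, pollen, seeds and roots (1, 3, 1 and 1 genes measured) had group means between 1.35 and 2.60, below the array medians. Of these 7 marker genes, limma called 0 at an adjusted p under 0.05 in the heat response of the double mutant and 0 in its difference from WT, and at an unadjusted p under 0.05 the counts were 1 and 0. In bulk RNA, fewer cells of a type and less RNA per cell cannot be told apart.

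Over the 51 genes the median response was 1.17 in brm-1 hd2c-3, against -0.07 in brm-1, 0.16 in hd2c-3 and -0.06 in WT. The medians over all 16552 genes were 0.00, 0.01, 0.05 and 0.01 in the same order of genotypes. The responses of the 51 genes ran between -0.47 and 2.84 in the double mutant, between -1.71 and 1.62 in brm-1, between -1.42 and 1.90 in hd2c-3, and between -1.39 and 1.77 in WT. A response above 0 was found for 50 genes in the double mutant, for 19 in brm-1, for 30 in hd2c-3 and for 23 in WT. The margin ran between 0.82 and 1.55, with a median of 0.93, against a median of -0.18 over all genes.

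The name "heat gains only when both factors lost" describes some of the 51 genes and not others. In 19 genes the response was above 0 in the double mutant and below 0 in each of the other 3 genotypes. In 15 genes the other genotypes had responses of both signs. In 16 genes all 4 responses were above 0, so that the double mutant's response was the highest and not the sole one above 0. In the remaining gene, AT1G66920, all 4 responses were below 0. The 4 patterns differ in sign alone and grade into each other in size.

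**Figure D1:**
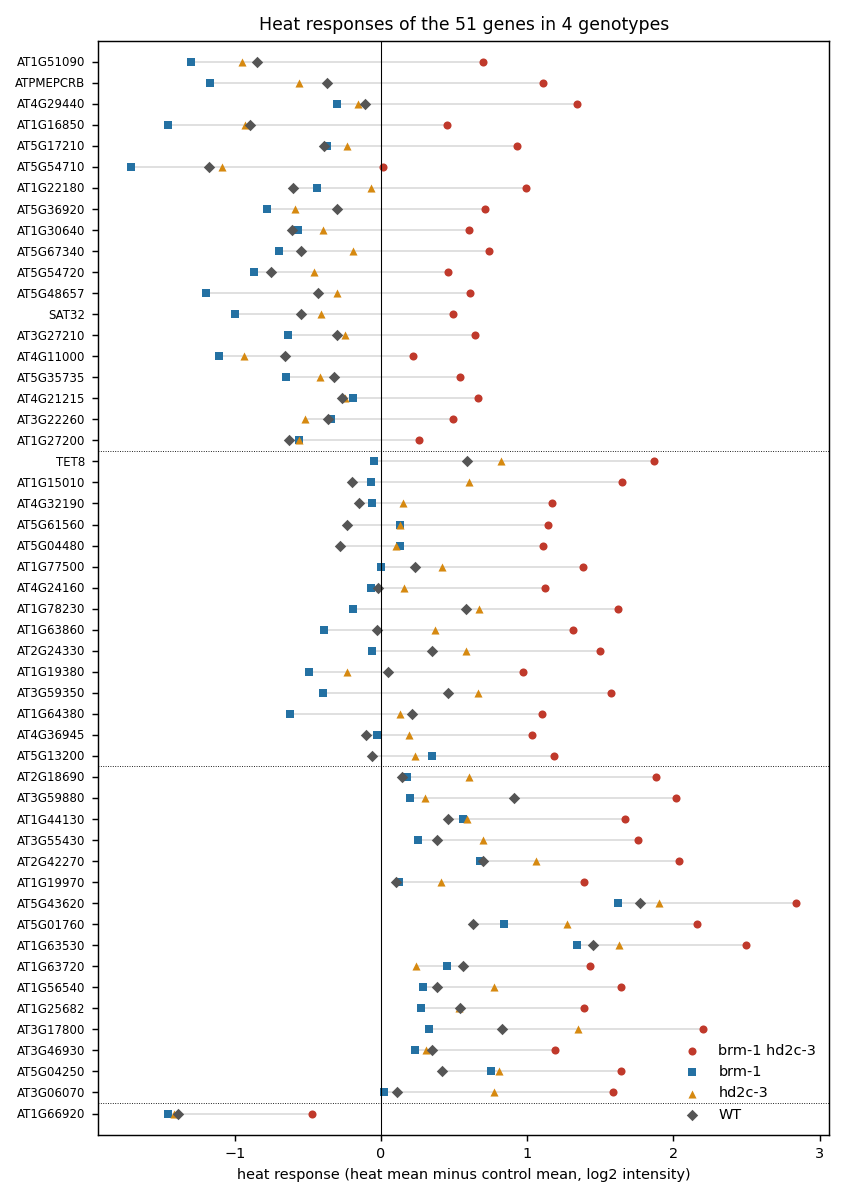
Heat response (log2, heat mean minus control mean, n = 3 arrays per group) of each of the 51 genes in brm-1 hd2c-3, brm-1, hd2c-3 and WT, with the genes ordered by the signs of the 4 responses and by margin. Each row is 1 gene and each point 1 genotype. The double-mutant point lies at least 0.82 to the right of every other point in its row because the genes were chosen that way, and the other 3 points lie left of 0 in the 19 genes of opposite sign.

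In the 19 genes with opposite signs the double mutant's response was modest in size. Its median was 0.61 (between 0.01 and 1.34), while the medians were -0.70 in brm-1, -0.42 in hd2c-3 and -0.55 in WT. The margin in these genes was thus made up of a lower level after heat in the other 3 genotypes as well as of a higher level after heat in the double mutant. AT4G29440 had the largest double-mutant response of the 19. Its heated double-mutant arrays read 8.03, 7.78 and 8.23 and the control arrays 6.64, 6.57 and 6.81, a response of 1.34 ± 0.17 (SE) or 2.53-fold. The heated arrays of brm-1 read 6.87, 7.15 and 6.83 (control 7.01, 7.29 and 7.46), those of hd2c-3 6.62, 7.11 and 7.01 (control 7.20, 7.0 and 7.01) and those of WT 6.85, 6.99 and 6.35 (control 6.74, 6.86 and 6.92). All 3 heated double-mutant arrays lay above the other 21 arrays of the series for this gene.

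ATPMEPCRB, the pectin methylesterase, had a margin of 1.48. In the heated double mutant its arrays read 5.53, 5.56 and 5.67, against 4.53, 4.68 and 4.21 in the control, so the groups did not overlap. In each of the other 3 genotypes the order was the reverse and the arrays did not overlap either. The heated arrays read 4.81, 4.90 and 4.10 in brm-1 (control 5.34, 6.13 and 5.85), 4.64, 4.94 and 4.88 in hd2c-3 (control 5.71, 5.41 and 5.02) and 4.45, 4.68 and 4.53 in WT (control 4.95, 4.91 and 4.91). The responses were 1.11 ± 0.20 (SE) in the double mutant, -1.17 ± 0.20 in brm-1, -0.56 ± 0.20 in hd2c-3 and -0.37 ± 0.20 in WT. After heat the transcript stood at 5.58 in the double mutant, between the control means of brm-1 (5.77) and hd2c-3 (5.38) and above that of WT (4.93).

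SAT32 showed the same crossing at a higher level. The heated double-mutant arrays read 7.95, 7.60 and 8.01, against 7.24, 7.35 and 7.48 in the control, a response of 0.49 ± 0.14 (SE). The response was -1.0 ± 0.14 in brm-1, -0.41 ± 0.14 in hd2c-3 and -0.55 ± 0.14 in WT. At 7.85 ± 0.22 (SD, n = 3), the heated double-mutant mean lay close to the heated hd2c-3 mean of 7.72 ± 0.11 and to the WT control mean of 7.94 ± 0.09. The lowest SAT32 levels of the series were those of heated brm-1, with arrays at 6.77, 6.54 and 6.46. Relative to brm-1 the double mutant's difference was 1.26 after heat and -0.23 in control. Relative to hd2c-3 it was 0.13 after heat and -0.77 in control, and relative to WT 0.46 and -0.58. The gap thus lay mostly after heat against brm-1 and mostly in control against hd2c-3.

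Among the 19 genes, AT1G51090 had the largest margin, 1.55, and the widest spread. In the heated double mutant its arrays read 7.33, 6.82 and 7.83, against 6.52, 6.51 and 6.87 in the control, and the 2 sets overlapped. The responses of the other genotypes were -1.30 ± 0.27 (SE) in brm-1, -0.95 ± 0.27 in hd2c-3 and -0.85 ± 0.27 in WT. The control mean was 6.63 ± 0.20 in the double mutant, against 8.15 ± 0.25 in hd2c-3 and 7.70 ± 0.38 in WT (SD, n = 3 each), so the double mutant started low and ended near the heated hd2c-3 mean of 7.20. AT1G16850 behaved likewise. Its response was 0.45 ± 0.21 in the double mutant and -0.90 ± 0.21 in WT, yet the heated mean was 6.46 ± 0.28 in the double mutant, against 6.79 ± 0.10 in WT. A large margin thus did not entail a high level after heat.

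Smaller margins of the same kind were found in other genes of the 19. AT5G17210 had heated double-mutant arrays at 5.44, 5.20 and 5.78, all above its other 21 arrays, and a response of 0.93 ± 0.21 (SE), with the other responses between -0.39 and -0.23. AT1G22180 had a double-mutant response of 0.99 ± 0.17, while that of hd2c-3, -0.07, was close to 0. AT5G36920 had heated double-mutant arrays spread over 5.40, 6.17 and 6.47, and the lowest of them overlapped the WT heated arrays and the control arrays. AT1G30640 had heated double-mutant arrays at 6.31, 6.17 and 6.36, against 5.75, 5.77 and 5.53 in the control, and in brm-1, hd2c-3 and WT each heated array lay below each control array.

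AT5G35735 had the highest level after heat among the 51 genes. The heated double-mutant mean was 8.96 ± 0.25, against 8.41 ± 0.05 in its control (SD, n = 3 each), and its response was 0.54 ± 0.18 (SE). The response was -0.65 in brm-1, -0.42 in hd2c-3 and -0.32 in WT. Its heated double-mutant level was close to the control level of the other 3 genotypes, which lay at 8.96 in brm-1, 8.97 in hd2c-3 and 8.83 in WT. In all, 4 genes, ATPMEPCRB, SAT32, AT1G30640 and AT5G35735, had all heated arrays above all control arrays in the double mutant and all heated arrays below all control arrays in each of the other 3 genotypes. The share of all genes with this joint pattern was not computed, so nothing is read from the count. For AT5G35735 the WT arrays were barely apart, with the highest heated array at 8.67 and the lowest control array at 8.68.

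In the 15 genes with mixed signs the median response was 1.18 in the double mutant, against -0.06 in brm-1, 0.23 in hd2c-3 and -0.02 in WT. TET8, the tetraspanin, was the one with a symbol. On the heated double-mutant arrays it read 8.16, 7.97 and 8.30, against 6.40, 6.16 and 6.26 in the control, a response of 1.87 ± 0.16 (SE) or 3.65-fold. Its heated hd2c-3 arrays read 7.33, 7.05 and 7.30 (control 6.38, 6.26 and 6.59), and its heated WT arrays 6.89, 6.97 and 6.53 (control 6.30, 6.17 and 6.13), with responses of 0.82 in hd2c-3 and 0.59 in WT. In brm-1 the heated arrays at 6.74, 7.05 and 6.55 overlapped the control arrays at 6.52, 6.81 and 7.17. The lowest heated double-mutant array of TET8 was above the highest of all other arrays.

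AT2G24330 had little spread between replicates. Its heated double-mutant mean was 8.46 ± 0.06 and its double-mutant control mean 6.96 ± 0.10 (SD, n = 3 each), and the response of 1.5 stood against -0.06 in brm-1, 0.58 in hd2c-3 and 0.35 in WT. AT4G32190 gave 1.17 in the double mutant, against -0.06, 0.15 and -0.15 in brm-1, hd2c-3 and WT. AT5G61560 gave 1.14, against 0.13 in brm-1, 0.13 in hd2c-3 and -0.23 in WT. Both these genes had heated double-mutant arrays above all heated arrays of the other genotypes. AT5G04480 gave 1.11, with the other responses between -0.28 and 0.13. AT1G78230 reached 8.52 in the heated double mutant, about the same as the 8.61 of heated hd2c-3 and 8.35 of heated WT. Its double-mutant control mean of 6.90 ± 0.31 was lower than the WT control mean of 7.77 ± 0.15 (SD, n = 3 each). The double mutant's difference from WT was thus 0.16 after heat and -0.87 in control.

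Replicates agreed poorly in AT1G15010. Its heated double-mutant arrays read 6.18, 4.56 and 5.87, and the heated arrays of brm-1, hd2c-3 and WT spanned 3.64 to 5.38. Of the heated double-mutant arrays, 1 thus lay among those of the other genotypes, although the margin of the means was 1.05. AT5G13200, with the second highest heated mean of the 51 genes, 8.78 ± 0.20 (SD, n = 3), also came close to the limit in its margin of 0.83.

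In the 16 genes with all 4 responses above 0 the gains were larger everywhere, with medians of 1.71 in the double mutant, 0.31 in brm-1, 0.74 in hd2c-3 and 0.50 in WT. AT5G43620 had the largest response of the 51 genes in the double mutant. On the heated arrays of that genotype it read 7.84, 7.97 and 8.38, against 5.53, 4.96 and 5.20 in the control, a response of 2.84 ± 0.32 (SE). The response of this gene was also large in brm-1 at 1.62 ± 0.32, in hd2c-3 at 1.90 ± 0.32 and in WT at 1.77 ± 0.32. Its heated double-mutant arrays overlapped those of brm-1 (7.53, 8.01 and 7.18) and of hd2c-3 (7.39, 8.11 and 8.34). They lay above the heated WT arrays, which read 7.25, 7.57 and 7.32.

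AT2G18690 was the gene of this kind whose heated double-mutant arrays were farthest from the others. They read 6.37, 6.16 and 6.08, against 4.29, 4.49 and 4.18 in the double-mutant control. The heated arrays of the other genotypes read 4.54, 4.89 and 4.89 in brm-1, 4.78, 4.82 and 5.21 in hd2c-3 and 4.75, 4.87 and 4.37 in WT, and no array outside the heated double mutant exceeded 5.21. The response was 1.88 ± 0.17 (SE) in the double mutant, or 3.69-fold, with 0.18 in brm-1, 0.60 in hd2c-3 and 0.14 in WT. Control levels differed little, with means of 4.32 in the double mutant and 4.52 in WT.

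Similar in form, AT2G42270 had responses of 2.04 in the double mutant, 0.68 in brm-1, 1.06 in hd2c-3 and 0.70 in WT. AT3G59880 had responses of 2.02, 0.20, 0.30 and 0.91 in the same order. Its heated double-mutant arrays, 6.83, 6.79 and 6.93, lay above all heated arrays of the other genotypes. AT3G55430 and AT1G19970 combined a double-mutant gain of 1.76 and 1.39 with gains of 0.70 and 0.41 in hd2c-3. AT3G06070, at a mean of 8.42 ± 0.25 (SD, n = 3) in the heated double mutant, had a response of 1.59 there and of 0.77 in hd2c-3. In each of AT2G42270, AT3G59880, AT3G55430, AT1G19970 and AT3G06070 the heated double-mutant arrays exceeded the 9 heated arrays of the other genotypes.

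**Figure D2:**
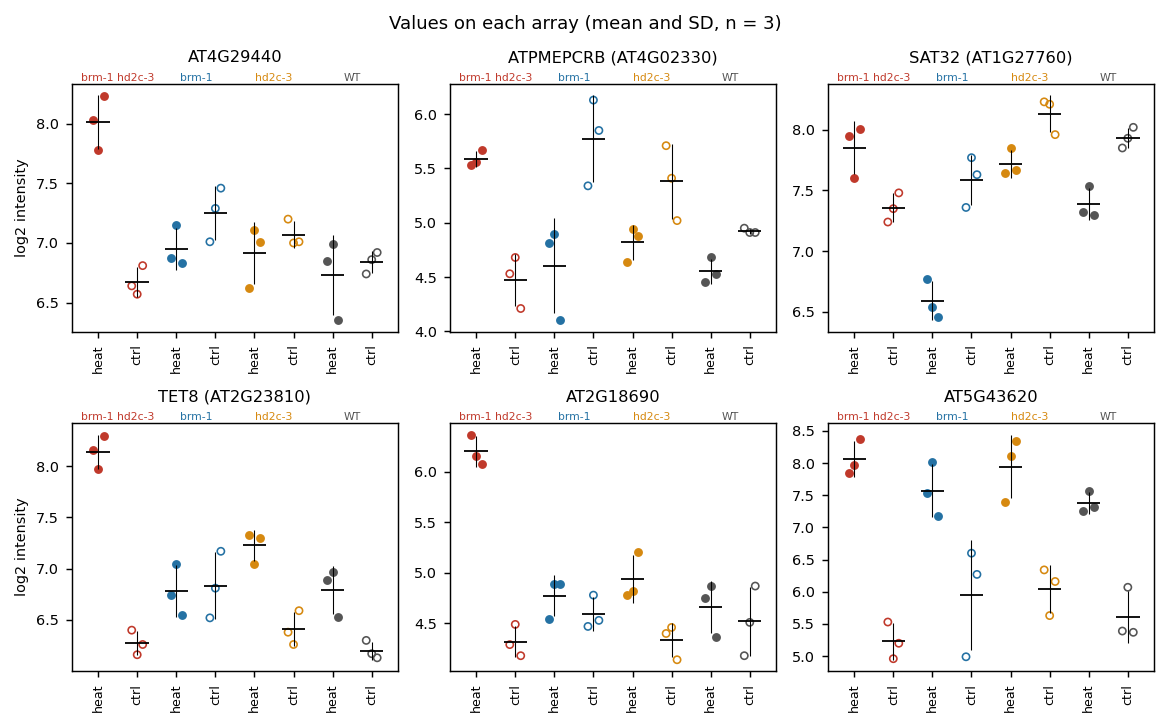
Log2 level on each of the 24 arrays for 6 of the 51 genes, with the genotypes in the order brm-1 hd2c-3, brm-1, hd2c-3 and WT and heat left of control. Each point is 1 array and each bar the mean of 3. The heated double-mutant points of AT4G29440, TET8 and AT2G18690 stand above all others, and those of SAT32 lie at the level of heated hd2c-3 and of control WT. Those of AT5G43620 overlap heated brm-1 and heated hd2c-3 and stand above heated WT.

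The exception to a gain, AT1G66920, was lower after heat in every genotype. After heat the double-mutant arrays read 5.71, 5.42 and 5.40, against 6.0, 6.21 and 5.73 in the control, a response of -0.47 ± 0.25 (SE). The responses were -1.46 in brm-1, -1.42 in hd2c-3 and -1.39 in WT, so the rule was met by a smaller drop in the double mutant. Its control levels were high in both genotypes with brm-1, 5.98 in the double mutant and 6.32 in brm-1, against 5.18 in hd2c-3 and 4.97 in WT.

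A larger response can come from a higher level after heat, a lower level in control, or both. Over the 51 genes the heated double mutant lay above heated brm-1 by a median of 0.94 (between 0.34 and 1.60), above heated hd2c-3 by 0.66 (between -0.55 and 2.44) and above heated WT by 0.89 (between -0.33 and 2.58). In control the double mutant stood at a median of -0.46 relative to brm-1 (between -1.30 and 0.27), -0.39 relative to hd2c-3 (between -1.94 and 1.37) and -0.29 relative to WT (between -1.68 and 1.38). All of these differences had medians between -0.04 and 0.02 over all 16552 genes. The difference after heat was larger in size than the one in control in 43 genes relative to brm-1, 34 relative to hd2c-3 and 44 relative to WT.

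The heated double mutant had the highest heated mean of the 4 genotypes in 48 of the 51 genes. The exceptions were AT1G16850, AT1G78230 and AT4G21215, in each of which heated hd2c-3 was higher. The double mutant had the lowest control mean in 36 genes, and in 33 genes it had both the highest heated and the lowest control mean. All 3 heated double-mutant arrays exceeded all 9 heated arrays of the other genotypes in 32 genes, against 2.07% of all genes, whereas all 3 double-mutant control arrays were below all 9 other control arrays in 6 genes, against 0.791% of all genes. Against one genotype at a time, the 3 heated double-mutant arrays were above the 3 heated arrays of brm-1 in 47 genes (8.88% of all genes), of hd2c-3 in 34 (7.21%) and of WT in 42 (10.6%). The 3 double-mutant control arrays were below those of brm-1 in 19 genes (4.88%), of hd2c-3 in 24 (8.75%) and of WT in 24 (9.62%). The rule used these levels, so the shares describe the selection and nothing is read from their distance to the background.

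Within a genotype, the heated arrays lay wholly above the control arrays in 43 of the 51 genes in the double mutant (13.7% of all genes), in 6 in brm-1 (14.6%), in 16 in hd2c-3 (17.5%) and in 12 in WT (15.4%). They lay wholly below the control arrays in 14 genes in brm-1 (16.3%), 12 in hd2c-3 (15.9%) and 18 in WT (16.2%). These shares too follow from how the genes were chosen.

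**Figure D3:**
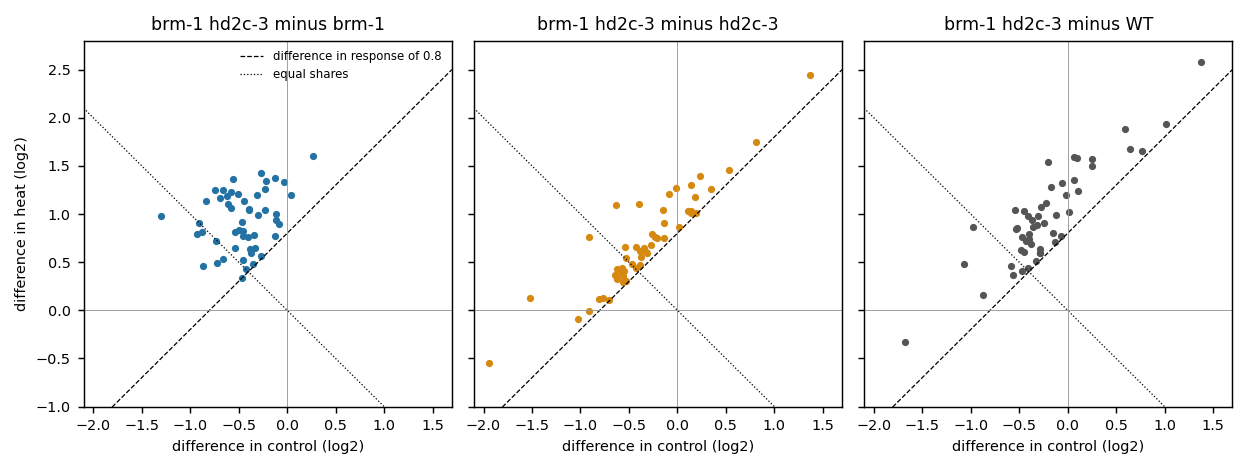
Difference of the double mutant from brm-1, hd2c-3 and WT (log2, difference of means of 3 arrays) in control on the horizontal axis and after heat on the vertical axis, 1 point per gene. Most of the 51 genes lie in the upper left, above 0 after heat and below 0 in control, and the medians after heat are 0.94 against brm-1, 0.66 against hd2c-3 and 0.89 against WT.

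Control levels split the genes further. In 12 of the 51 genes the double-mutant control mean was above that of WT, and in 5 of these by at least 0.5, namely AT1G44130, AT5G67340, AT1G66920, AT5G48657 and AT4G11000. In all 5 the brm-1 control mean was at least 0.5 above WT too. AT1G44130 had control means of 4.80 ± 0.35 in the double mutant and 4.91 ± 0.78 in brm-1, against 3.43 ± 0.52 in hd2c-3 and 3.42 ± 0.66 in WT (SD, n = 3 each). Its heated double-mutant arrays read 6.22, 6.49 and 6.69, and its heated WT arrays 4.12, 3.4 and 4.12, the largest heated difference from WT of the 51 genes at 2.58. AT5G67340 had tight replicates, with heated means of 6.71 ± 0.10 in the double mutant, 5.66 ± 0.01 in brm-1, 5.25 ± 0.12 in hd2c-3 and 4.83 ± 0.16 in WT (SD, n = 3 each). The response of this gene was 0.74 in the double mutant and -0.70 in brm-1. In 9 genes the double-mutant control mean was at least 0.5 below WT, AT1G16850, AT1G51090 and SAT32 among them.

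For each gene the sum of the single-mutant effects is the brm-1 response plus the hd2c-3 response minus the WT response. The response in the double mutant exceeded this sum in all 51 genes, by a median of 1.13 (between 0.50 and 2.47), against a median of -0.05 over all genes. The sum is built from the responses that the rule used, so this excess is a description of the selection and no finding. The next highest response after the double mutant belonged to hd2c-3 in 32 genes, to WT in 14 and to brm-1 in 5. The lowest of the 4 responses belonged to brm-1 in 33 genes, to WT in 16 and to hd2c-3 in 2. The excess of the double mutant was accordingly larger over brm-1, with a median of 1.34, than over WT with 1.2 and over hd2c-3 with 0.96.

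Read through the same model as all other genes, the heat response of the double mutant was called higher (limma, adjusted p under 0.05) for 43 of the 51 genes, against 9.38% of all genes, and lower for 0, against 12.1%. The brm-1 response was called higher for 5 (background 7.28%) and lower for 13 (8.51%), the hd2c-3 response higher for 14 (8.88%) and lower for 7 (11.2%), and the WT response higher for 8 (5.8%) and lower for 9 (7.48%). The double mutant's response was called higher than that of brm-1 for 41 genes (1.63%), than that of hd2c-3 for 10 (0.199%) and than that of WT for 29 (1.15%), and lower for 0 genes in each case (0.719%, 0.0242% and 0.32% of all genes). All 3 differences were called for 9 of the 51 genes and for 0.121% of all genes. These 9 were ATPMEPCRB, SAT32, AT4G29440, AT1G16850, AT2G18690, AT3G55430, AT1G30640, AT5G67340 and AT4G36945. The rule used each of these contrasts, and the counts are a description of the genes chosen.

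Without regard to the hd2c-3 condition, 83 genes had a response at least 0.8 above the other 3 in the double mutant together with a heated mean of at least 5. The same requirement for brm-1 was met by 17 genes, for hd2c-3 by 4 and for WT by 0. In the opposite direction, a response at least 0.8 below the other 3 was found for 10 genes in the double mutant, 16 in brm-1, 1 in hd2c-3 and 34 in WT. Here the heated mean of at least 5 was required of any genotype and not of the genotype itself. The counts of the 2 directions are therefore not filtered alike. The heated double mutant also had the widest spread between replicates of the 8 groups, with the median gene SD of 0.212 given above, and the part of this spread in the number of genes was not tested.

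The limit of 0.8 did not fall in a gap. The genes just inside it were AT3G06070 with a margin of 0.818, AT1G27200 with 0.819, AT5G13200 with 0.826, and AT5G04250 and AT3G22260 with 0.83 each. Just outside it stood AT2G21500 with 0.793, AT3G24840 with 0.787, AT5G17847 and AT4G18280 with 0.782 each, and NANA (AT3G12700) with 0.765. The genes on the 2 sides therefore differ by less than the median pooled SD of 0.27 between replicates of the 51 genes, which compares with 0.21 over all genes.

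Single arrays moved which genes passed. In 34 of the 51 genes the highest heated double-mutant array was replicate 3, in 15 it was replicate 1 and in 2 replicate 2. The median deviation of the 51 genes from their group mean was 0.14 on replicate 3 and -0.13 on replicate 2 of the heated double mutant, and -0.29 on replicate 1 and 0.22 on replicate 2 of the brm-1 control. Over all genes no array's median deviation exceeded 0.04 in size. Without replicate 3 of the heated double mutant the rule selected 34 genes, 33 of them among the 51, and without its replicate 2 it selected 74, including 50 of the 51. When each of the 24 arrays was left out in turn, 16 genes met the rule every time, and all 51 kept a margin of at least 0.5.

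Transcripts of known pathways were examined through 17 gene lists with 234 measured genes, of which ATPMEPCRB alone was among the 51. Genes were matched to the lists by symbol or synonym, and 48 of the 51 genes carry only a locus identifier. The small overlap therefore does not tell whether the 51 genes belong to these pathways. In the difference between the double mutant's response and that of WT, 5 of the other 233 genes were called higher by limma and 0 lower, against 1.15% called higher and 0.32% lower over all genes. At an unadjusted p under 0.05 the counts were 26 and 10. The 5 called genes were ARL, CML37, WRKY6, AGL94 and AT5G48570. With ATPMEPCRB included, no gene was called in 12 of the 17 lists, and the pectin and arabinogalactan list had a call through ATPMEPCRB alone. Among the 12 were abscisic acid and dehydration (1 measured), cold (3), jasmonate and wounding (7), auxin (21), salicylic acid and defence (2), glutathione transferases and antioxidant enzymes (16), and nutrient transporters (40).

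In the list of rapid responses to touch, calcium and elicitors, limma called the heat response higher for 5 of 8 genes and lower for 1 in the double mutant (9.38% and 12.1% of all genes). The counts were 2 and 2 in brm-1 (7.28% and 8.51%), 2 and 2 in hd2c-3 (8.88% and 11.2%), and 0 and 2 in WT (5.8% and 7.48%), and the difference between these counts was not tested. The median response difference from WT over these 8 genes was 0.71, against -0.02 over all genes, and 2 of the 8 were called. CML37, a calmodulin-like calcium sensor, had a response of 0.78 in the double mutant, -0.01 in brm-1, 0.53 in hd2c-3 and -0.10 in WT. The double mutant's difference from WT was 0.88 ± 0.20 (SE; limma, adjusted p = 0.0212, range 0.00692 to 0.0778 over the alternatives). The CML37 levels of 2.40 in the heated double mutant and 1.53 in heated WT lay below the array medians. WRKY6, a transcription factor of senescence and defence, had a response of 0.26 in the double mutant, -0.60 in brm-1, -0.49 in hd2c-3 and -0.58 in WT. The double mutant's difference from WT was 0.84 ± 0.22 (SE; limma, adjusted p = 0.0481, range 0.015 to 0.14). The call of WRKY6 was lost with equal array medians (adjusted p = 0.0696 in limma) and without any single one of 18 arrays, and that of CML37 without any single one of 7.

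ARL, an ARGOS-like gene of organ growth in the ethylene list (1 of 2 called), had a response of 0.62 in the double mutant, 0.86 in brm-1, -0.34 in hd2c-3 and -0.64 in WT. The double mutant's difference from WT was 1.25 ± 0.27 (SE; limma, adjusted p = 0.0154, range 0.00309 to 0.0561), and the highest value was that without replicate 3 of the heated double mutant. Its response in the double mutant was not called different from that of brm-1. AGL94, a MADS-box gene and with WRKY6 the only called of 113 transcription factors, had a response of 1.09 in the double mutant, 0.11 in brm-1, 0.17 in hd2c-3 and -0.24 in WT. The double mutant's difference from WT, 1.33 ± 0.25 (SE), had an adjusted p of 0.00644 in limma and stayed called under all 29 alternatives that included AGL94. The mean level of AGL94 was 3.59 in the heated double mutant, below the minimum of 5.

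The heat shock response itself was present in all genotypes, with 6 of 7 listed genes called higher in each. AT5G48570, the heat-induced peptidyl-prolyl isomerase ROF2, had a response of 8.15 in the double mutant, 7.62 in brm-1, 7.71 in hd2c-3 and 7.12 in WT. The double mutant's difference from WT was 1.03 ± 0.26 (SE; limma, adjusted p = 0.0448, range 0.0152 to 0.137). This call was lost without any single one of 16 arrays. The list's median difference from WT was 1.03, and from hd2c-3 and brm-1 it was 0.17 and 0.18.

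Most relatives of the pectin methylesterase and of the tetraspanin were not called. Besides ATPMEPCRB, 4 pectin and arabinogalactan genes were measured, ADPG1, PME61, AT4G02300 and PMEPCRF. Of these 4, limma called 0 in the difference from WT, and 1 had an unadjusted p under 0.05. Besides TET8, 11 tetraspanins were measured, a list added after values had been seen. Of these 11, TET2 was called higher in the difference from WT, against 1.15% of all genes, and 2 had an unadjusted p under 0.05. TET2 had a response of 1.68 in the double mutant, 1.43 in brm-1, 1.36 in hd2c-3 and 0.57 in WT. Its difference from WT was 1.11 ± 0.24 (SE; limma, adjusted p = 0.016), with an adjusted p of 0.0592 without replicate 3 of the heated double mutant. All 4 responses of TET2 were thus above 0.

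The 51 genes were spread over the 5 nuclear chromosomes, with 19 of 4279 measured genes on chromosome 1, 4 of 2536 on chromosome 2, 8 of 3379 on chromosome 3, 7 of 2440 on chromosome 4 and 13 of 3809 on chromosome 5. A single pair, AT5G54710 and AT5G54720, stood next to each other in the gene order of TAIR10.1. The heated double-mutant arrays of AT5G54710 read 5.30, 5.93 and 5.95, against 5.97, 5.61 and 5.58 in the control, so its double-mutant response was 0.01, and the other responses were -1.71 in brm-1, -1.09 in hd2c-3 and -1.18 in WT. AT5G54720 had responses of 0.46, -0.87, -0.46 and -0.75 in the same order, and its heated double-mutant arrays overlapped the control arrays. Of the 64 measured neighbours that were not among the 51 genes, 23 (35.9%) had a margin above 0, against 23.9% of all genes, and this difference was not tested. The highest margin among them, 1.28, was that of AT5G36925 beside AT5G36920. Its response was 2.02 in the double mutant, against -0.17 in brm-1, 0.74 in hd2c-3 and 0.56 in WT, and its heated double-mutant mean was 5.71. It stood outside the 51 genes through the hd2c-3 condition alone, since its heated hd2c-3 mean was 0.73 above that of WT.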

How the data were processed

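The authors deposited log2 values for 38408 probe sets and 24 arrays. RMA and Partek are the tools listed in the submitters' processing notes, which give neither versions nor settings. Probe sets were named from the platform annotation and a RefSeq gene table of assembly TAIR10.1, which was used only for names and neighbours. Of 17504 named probe sets, 758 carried several genes and were left out, as were 20904 without a name. For each gene the probe set with the highest mean over all arrays was kept, which left 16552 genes (16512 in the RefSeq table).

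All 24 arrays entered 1 model with a mean per group (limma 3.58.1, R 4.3.3, lmFit and eBayes, 16 residual and 6.25 prior degrees of freedom). The model gave 7 two-sided contrasts: the heat response of each genotype and the difference of the double mutant's response from each other response. Calls were made where the p adjusted over all genes by Benjamini-Hochberg was under 0.05. The procedure was first tested on simulated data. Replicate numbers were not treated as pairs, since the labels give no shared origin. A correlation of deviations over 0.1 was found in 23 of 84 same-number pairs of arrays and in 26 of 168 pairs with different numbers. The medians were 0.03 and -0.02 and the highest values 0.41 and 0.25, so same-number arrays were somewhat more alike. A replicate block was therefore among the alternatives. The labels do not tell whether replicates were grown separately beyond calling them biological.

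The genes, gene lists and tests were chosen with earlier results of these data known. Named are the 20 genes with the largest margin, the 5 with the highest heated double-mutant mean, those next to the limit, neighbours, and listed genes called in the difference from WT. SAT32, AT5G43620, AT1G66920, AT5G67340, AT5G48657, AT4G11000, AT4G21215, AT4G36945, AT5G36925 and TET2 were named after their values were seen. BRK1 was taken out of the heat shock list, where a synonym had placed it, because it is no heat shock protein. Promoter motifs and sequences were not analysed here. The alternatives were equal array medians, cyclic loess, a level filter, the mean of a gene's probe sets, an intensity trend, a replicate block, other limits of the rule, and leaving out each array. Figures were drawn with matplotlib 3.10.9.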

Additional observations from a re-analysis of the deposited data

Results flagged for a closer look

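In 4 of the 51 genes every heated double-mutant array lay above every control array, while in brm-1, hd2c-3 and WT every heated array lay below every control array. The double mutant's response was 1.11 in ATPMEPCRB, 0.60 in AT1G30640, 0.54 in AT5G35735 and 0.49 in SAT32. The rule that chose these 4 genes used the difference between genotypes, so it was not tested independently for them. The share of all genes with this joint pattern was not computed.

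In 5 genes of the pathway lists that are not among the 51, the heat response of the double mutant differed from that of WT by a direct test of the difference in limma. The difference was 1.33 in AGL94, 1.25 in ARL, 1.03 in AT5G48570, 0.88 in CML37 and 0.84 in WRKY6. With 3 arrays in each group, no search for single outlying arrays was made.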

How the results depend on the processing

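The number of genes meeting the rule was 105 with a margin of 0.6, 16 with a margin of 1 and 81 without a minimum level, and it lay between 34 and 74 when 1 array was left out. Cyclic loess gave 48 genes and equal array medians 41. The median margin of the 51 genes stayed between 0.88 and 1.00 without 1 array. The double mutant's response was called different from that of hd2c-3 for 37 genes, from that of WT for 243 and from that of brm-1 for 389. With equal array medians the hd2c-3 count was 20. With the level filter, which tests 5822 genes, the counts were 61, 468 and 643, and with an intensity trend 61 and 374 against hd2c-3 and WT. Leaving out 1 array gave 11 to 56 against hd2c-3, 138 to 311 against WT and 168 to 550 against brm-1. The counts of the heat responses themselves moved by less than 1.5 times, to 2854 to 3621 in the double mutant, 2001 to 2736 in brm-1, 2563 to 3558 in hd2c-3 and 1549 to 2363 in WT. The cause of these shifts was not tested.

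Single arrays moved several counts by over 1.5 times. Against WT these were replicate 3 of heated brm-1 hd2c-3 (138), of its control (154), of heated WT (160) and of control WT (147). Against hd2c-3 they were heated double mutant replicate 3 (13), its control replicates 1 (14), 2 (23) and 3 (17), heated hd2c-3 replicate 1 (56), and control hd2c-3 replicates 1 (11) and 2 (13). Against brm-1 they were heated double mutant replicate 3 (223), its control replicate 1 (258), heated brm-1 replicate 3 (219), and control brm-1 replicates 2 (168) and 3 (229). With a replicate block the counts were 39 against hd2c-3, 288 against WT and 438 against brm-1, and 3674, 2742, 3435 and 2316 for the responses of the double mutant, brm-1, hd2c-3 and WT, and the block changed no count by over 1.5 times. Each array's deviations were correlated with those of the arrays of other groups and averaged by replicate number. For 14 of the 24 arrays the highest mean was that of their own number, a hint from the data and not from the design. The call of CML37 was lost without double mutant heated replicates 1 or 3, its control replicates 1 or 3, WT heated replicate 3, or WT control replicates 1 or 3. WRKY6 lost its call with equal array medians (0.88, adjusted p = 0.0696) and without any 1 of the 12 arrays of the double mutant and WT or of 6 others, and AT5G48570 without 10 of these 12 or 6 others.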

Other observations

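Among the probe sets that carry no gene name or several genes, 70 of 21662 (0.323%) met the numerical conditions of the rule, against 51 of 16552 genes (0.308%). They are not named here.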
